A study of Mus musculus with 8 samples.

Results

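R-spondins and the genes that respond to canonical Wnt signalling were compared between mouse embryos with normal and with reduced Isl1, in RNA from dissected outflow tract with right ventricle (OFT/RV). The group held 10 genes, chosen by name, of 20701 gene symbols in the count table. For each symbol the RefSeq transcript with the highest mean count was used. Of these genes 6 act upstream as potentiators of the pathway, namely Rspo1, Rspo2, Rspo3, Lgr4, Lgr5 and Wnt2, and 4 serve as transcriptional readouts of beta-catenin, namely Axin2, Lef1, Nkd1 and Znrf3. RNA came from single embryos at E10.5. The 4 CTRL embryos were wild type and the 4 Isl1_hypo embryos were homozygous for a hypomorphic Isl1 allele (f;neo), both on the C57BL/6 strain, and the labels name no other allele or agent. The allele is carried by the whole embryo and not by heart cells alone, and Isl1 was measured here only in OFT/RV.

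Canonical Wnt ligands bind Frizzled and Lrp receptors and stabilise beta-catenin, which enters the nucleus and activates genes together with TCF/LEF factors. The ubiquitin ligases Znrf3 and Rnf43 remove Frizzled from the cell surface, and R-spondins bound to Lgr receptors withdraw these ligases, which prolongs the Wnt signal. Many targets of the pathway, such as Axin2, Nkd1, Znrf3 and Dkk1, encode its own inhibitors. In the embryonic heart, Wnt signals act on second heart field progenitors, the outflow tract and the epicardium.

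Libraries held 18422245 to 46678973 counts, and log2 depth differed by −0.56 in Isl1_hypo (exact permutation test, p = 0.0571). Levels are given as CPM, the counts per 1000000 counts of the library after scaling by the TMM method, and libraries are always listed from replicate 1 to 4. Isl1 itself had 29.6, 61.5, 46.2 and 51.3 CPM in the CTRL embryos, whereas Isl1_hypo embryos had 12.7, 6.86, 7.71 and 11.4 CPM. It fell by 2.29 on the log2 scale (SE 0.256, adjusted p = 0.0077, edgeR). Isl1_hypo replicate 3 stood apart, with 14305 genes detected against 14935 to 15396 in the others and a score of 72 against −17.7 to 3.97 on the first principal component. Isl1_hypo replicate 1 contained transcripts of epithelium, and the summed level of 8 epithelial genes was 309.2 CPM in it, 125 to 192.3 CPM in the other Isl1_hypo libraries and 67.9 to 115.3 CPM in CTRL. The 8 cardiomyocyte genes examined summed to 22414 to 26502 CPM in CTRL and 22251 to 25174 CPM in Isl1_hypo, so cardiac muscle transcripts were abundant in all 8 libraries. Globin transcripts took 0.212 to 1.19% of counts in CTRL and 1.18 to 2.44% in Isl1_hypo. The globin level thus nearly separated the groups. Fits with it as a covariate therefore cannot tell blood content from genotype, and calls lost in them do not show which of them is involved. In RNA of whole tissue, fewer cells of a type and less RNA per cell cannot be told apart.

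All 10 genes passed the filter on low counts, and 0 had an adjusted p under 0.05 in the edgeR quasi-likelihood test, against 0.269% of the 13769 genes tested. Rspo1, with 6, 9 and 8 counts in CTRL replicates 1, 2 and 3, passed this filter only through its Isl1_hypo levels. Lgr5 passed it only through its CTRL levels. Of all genes tested, 0.145% were called higher and 0.123% lower. An unadjusted p under 0.05 was reached by 3 of the 10 (11.9% of all genes), 2 with higher (5.69%) and 1 with lower expression (6.17%), and DESeq2 and limma-voom each called 1, Rspo3. The same 3 genes, Rspo1, Rspo3 and Lgr4, met the criterion that the study used (log2 fold change beyond 0.58 in either direction, unadjusted p under 0.05), as did 5.16% of all genes. The study applied this criterion to DESeq2 values, and here it is applied to edgeR values unless stated. Rspo1 and Lgr4 were higher (2.27% of all genes) and Rspo3 lower (2.89%). Groups did not overlap for 3 of the 10 genes (8.5% of all genes), Lgr4, Rspo3 and Lgr5. Estimates were above 0 for 5 of the 10 genes and for 50.9% of all genes. All 3 genes past the criterion are potentiators. None of the 4 readouts passed it, which for 4 genes lies near the 5.16% of all genes. Lgr5, listed with the potentiators, is also a Wnt target, and it passed the criterion with DESeq2 (log2 fold change −1.98, unadjusted p = 0.0291). The median log2 fold change was −0.39 over the potentiators, 0.17 over the readouts and 0.01 over all genes tested. Single potentiators ran from −1.96 to 2.29. Their median was −0.12 when at least 10 counts were required in every library, a filter that Rspo1, Rspo2 and Lgr5 did not pass. With limma-voom the median of the potentiators was 0.08, because Rspo2 changed sign, and the difference between both sets of genes was not tested.

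**Figure D1:**
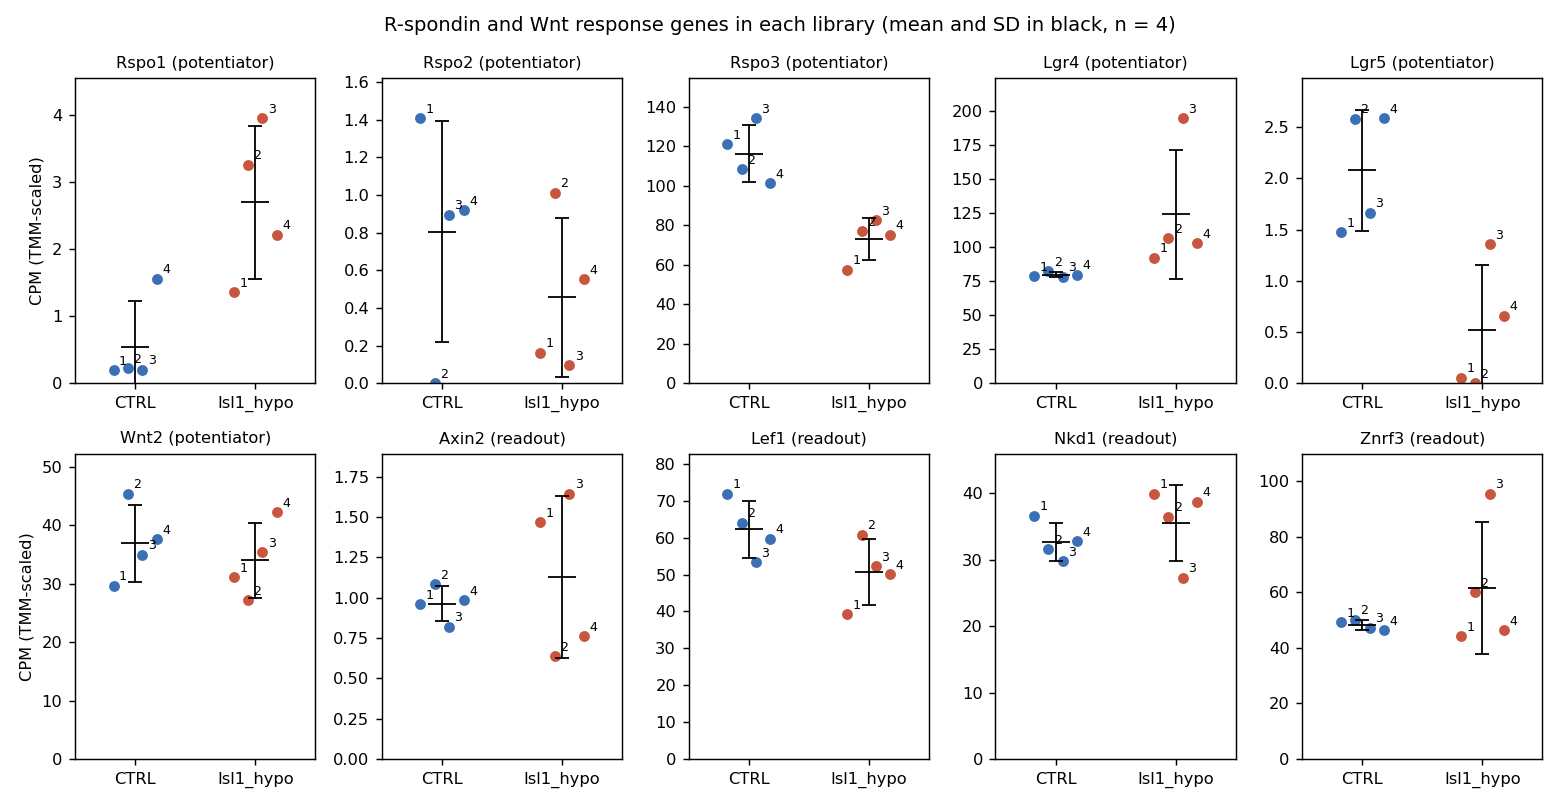
Level of each gene in the 8 libraries, in CPM on a linear axis from 0, with the replicate number beside each point and the mean and SD of each group in black (n = 4, with SD bars cut at 0). All Isl1_hypo points of Rspo3 and Lgr5 lie under the CTRL points and those of Lgr4 lie above them, and Isl1_hypo replicate 3 is the highest point for Lgr4 and Znrf3.

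Levels were compared between genes per transcript length, with the RPKM of the authors. In CTRL, Rspo3 was the most abundant of the 10 genes at 29.8 ± 3.65 RPKM (SD, n = 4), above 85.9% of the genes tested. Wnt2 (10.7 ± 1.85), Lef1 (10.49 ± 1.45) and Lgr4 (9.68 ± 0.254 RPKM) followed, and their ranges over the 4 libraries overlapped. Nkd1 stood at 4.66 ± 0.477 and Znrf3 at 4.12 ± 0.181 RPKM, again with overlapping ranges. The other 4 genes were scarce, with Lgr5 at 0.271 ± 0.0765, Rspo1 at 0.182 ± 0.227, Rspo2 at 0.149 ± 0.109 and Axin2 at 0.139 ± 0.0163 RPKM. Axin2, often used as a general readout of canonical Wnt signalling, was above only 4.71% of the genes tested, and the table cannot show whether some of its reads were missed in counting. Its range in CTRL overlapped those of Rspo1 and Rspo2, and Rspo1 lay below it in CTRL replicates 1, 2 and 3.

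Promoter sequences of 6 of the 10 genes were found in RefSeq (GRCm38.p6), namely Rspo1, Lgr4, Wnt2, Axin2, Lef1 and Nkd1. The 250 bases before the start site are given for Rspo1 and Lgr4, which passed the criterion of the study, and for Axin2 as the reference readout, with capitals for the motif TAATGG, a core bound by LIM-homeodomain factors.
Rspo1 (chr4:124986180-124986429, plus strand): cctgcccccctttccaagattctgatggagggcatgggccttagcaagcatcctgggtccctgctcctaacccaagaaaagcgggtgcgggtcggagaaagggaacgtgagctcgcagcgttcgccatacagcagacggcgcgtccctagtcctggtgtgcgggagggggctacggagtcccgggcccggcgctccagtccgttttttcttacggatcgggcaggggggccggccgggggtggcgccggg
Lgr4 (chr2:109917397-109917646, plus strand): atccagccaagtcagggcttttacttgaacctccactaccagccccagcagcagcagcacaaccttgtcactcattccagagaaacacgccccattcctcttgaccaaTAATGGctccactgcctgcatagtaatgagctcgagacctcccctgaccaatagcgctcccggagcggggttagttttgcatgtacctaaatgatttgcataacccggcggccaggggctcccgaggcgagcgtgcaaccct
Axin2 (chr11:108920099-108920348, plus strand): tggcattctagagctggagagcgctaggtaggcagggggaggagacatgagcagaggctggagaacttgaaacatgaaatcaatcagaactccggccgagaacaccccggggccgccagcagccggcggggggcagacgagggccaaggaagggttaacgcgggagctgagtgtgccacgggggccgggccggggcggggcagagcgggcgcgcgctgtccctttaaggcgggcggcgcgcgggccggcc
The TCF/LEF motif CTTTGAT was searched on both strands of windows that run from 250 bases before to 50 after each start site. It was found in 0 of the 9 windows of these 6 genes and in 3.73% of all 32851 windows. TAATGG occurred in 1 of the 9 windows (both strands searched), that of Lgr4 at 142 bases before the start site, and in 7.73% of all windows.

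Among the ligands, Rspo3 showed the clearest difference. It is encoded on the minus strand of chromosome 10 (chr10:29172915-29255673), and the positions of this and the other genes are those of the mm9 genome. The CTRL embryos had 121, 108.3, 134.2 and 101.3 CPM, and the Isl1_hypo embryos 57.5, 77, 82.4 and 75.2 CPM. Every Isl1_hypo embryo lay under every CTRL embryo, and 612 genes (4.44%) showed this pattern. The means were 116.2 ± 14.5 and 73 ± 10.8 CPM (SD, n = 4), so that Isl1_hypo held 62.9% of the CTRL level. This is a log2 fold change of −0.67 (95% interval −0.96 to −0.37), with an adjusted p of 0.0688 in edgeR. An exact permutation test gave p = 0.0286, the smallest value that 4 against 4 can give. The adjusted p was 0.0012 in DESeq2, 0.0193 in limma-voom and 0.0489 in edgeR without Isl1_hypo replicate 3, the 3 of 19 alternatives that called the gene. In the others it reached 0.238 without CTRL replicate 3, 0.262 with the Y-linked covariate and 0.9996 with the globin covariate. Across 19 alternatives the log2 fold change ranged from −0.73 to −0.57, and without Isl1_hypo replicate 1 (−0.57) it no longer met the study criterion. Beside Rspo3, 7 of 8 cushion mesenchyme genes had lower estimates (median log2 fold change −0.39). Of these 8 genes 0 were called in edgeR, DESeq2 or limma-voom, 0 passed the study criterion in edgeR, 0 were without overlap, and 3 were lower at an unadjusted p under 0.05 (6.17% of all genes). Their summed level was 2701 to 4022 CPM in CTRL and 1626 to 3652 CPM in Isl1_hypo. Isl1_hypo replicate 1, the lowest in Rspo3, was the highest of its group in these genes at 3652 CPM. The part of this cell type in the level of Rspo3 was not tested.

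Rspo1 differed in the opposite direction at a far lower level. This ligand is encoded on chromosome 4 (mm9, chr4:124663674-124686343). It had 6, 9, 8 and 73 counts in CTRL, which is 0.192, 0.221, 0.199 and 1.56 CPM. The Isl1_hypo libraries held 25, 87, 125 and 64 counts, or 1.36, 3.26, 3.95 and 2.21 CPM. The groups overlapped through CTRL replicate 4, which lay above Isl1_hypo replicate 1. The log2 fold change was 2.29 (95% interval 0.66 to 3.91, adjusted p = 0.283, edgeR; exact permutation p = 0.0571). Without CTRL replicate 4 it was 3.70 with an adjusted p of 0.0372. With the globin level as a covariate it was 0.77 (adjusted p = 0.9996, unadjusted p = 0.326), but that fit cannot separate globin from group.

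Markers of the epicardium and mesothelium were compared beside Rspo1. All 8 genes of this list, among them the epicardial transcription factor genes Wt1, Tbx18 and Tcf21, had higher estimates in Isl1_hypo, with a median log2 fold change of 1.07. Wt1, for example, stood at 19.3 ± 9.43 CPM in CTRL and 40.5 ± 3.55 CPM in Isl1_hypo (log2 fold change 1.07, adjusted p = 0.268). Of the 8 genes 0 were called in edgeR (6 were higher at an unadjusted p under 0.05, as were 5.69% of all genes), 0 in limma-voom and 2 in DESeq2, 6 of the 8 passed the criterion of the study (2.27% of all genes were higher by it), and 4 of 8 were higher without overlap between the groups (4.06% of all genes). With the globin covariate the median was 0.29 and 0 passed the criterion. The summed level was 81.8, 271, 260.2 and 403.4 CPM in CTRL and 498.9, 519.2, 840.6 and 483.8 CPM in Isl1_hypo. CTRL replicate 4, the CTRL library with the most Rspo1, also had the highest epicardial sum of its group. Isl1_hypo replicate 3 was the highest of all libraries in both. Globin was likewise highest of CTRL in CTRL replicate 4 (1.19%) and highest of all in Isl1_hypo replicate 3 (2.44%). Isl1_hypo replicate 1 had less Rspo1 than replicate 4 but a higher epicardial sum. CTRL replicates 1, 2 and 3 had similar Rspo1 at sums of 81.8, 271 and 260.2 CPM. Relative to the epicardial sum, Rspo1 amounted to 0.235, 0.0817, 0.0764 and 0.387% in CTRL and 0.272, 0.628, 0.47 and 0.458% in Isl1_hypo. These shares overlapped between the groups as well. Other cell types also had higher estimates. All 7 erythroid genes tested did (median log2 fold change 2.08), with 1 called in edgeR, 3 in limma-voom and 5 in DESeq2. All 7 passed the study criterion, and 5 were without overlap. The 4 epithelial genes tested also had higher estimates (median 1.65, 0 called in edgeR and limma-voom and 2 in DESeq2). Of these 4, 3 were past the criterion and at an unadjusted p under 0.05. Without Isl1_hypo replicate 1 the epithelial median was 0.70, and 2 passed the criterion. Of all genes, 2.27% were higher by the criterion. The part of epicardial or other cells in the difference of Rspo1 was not tested.

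**Figure D2:**
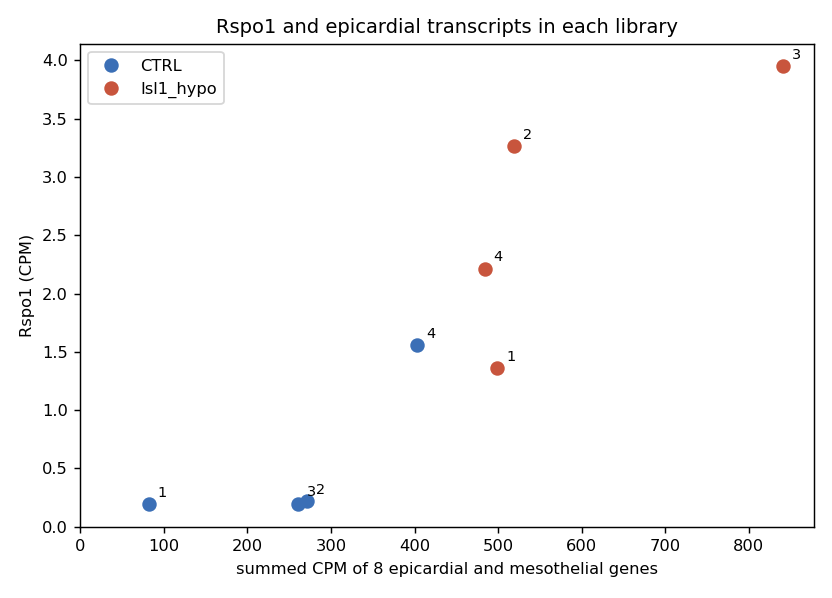
Rspo1 level (CPM, vertical axis) against the summed level of 8 epicardial and mesothelial genes (CPM, horizontal axis), with 1 point per library and its replicate number. The 3 CTRL libraries with the lowest Rspo1 have sums up to 271 CPM, and CTRL replicate 4 lies next to the Isl1_hypo libraries at 403.4 CPM.

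Rspo2 (chr15:42852357-43002364) was scarce and uneven, and 3 of the 8 libraries held 3 counts or fewer. It had 44, 0, 36 and 43 counts in CTRL and 3, 27, 3 and 16 in Isl1_hypo, or 1.41, 0, 0.894 and 0.919 CPM against 0.163, 1.01, 0.0948 and 0.554 CPM. The 0 counts of CTRL replicate 2 allow a level of up to 0.0738 CPM (3 counts). Groups overlapped, and the interval of the log2 fold change, −3.09 to 1.49, left the direction undetermined (adjusted p = 0.793). Of these 3 R-spondins Rspo3 was by far the most abundant in both groups, with 18.4 ± 2.51 RPKM in Isl1_hypo against 0.885 ± 0.363 for Rspo1 and 0.0827 ± 0.0768 for Rspo2.

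Wnt2, a canonical ligand expressed in the early heart (chr6:17938940-17980585), did not differ detectably. Its level was 29.7, 45.4, 35 and 37.6 CPM in CTRL and 31.1, 27.2, 35.4 and 42.2 CPM in Isl1_hypo. The log2 fold change was −0.12 (95% interval −0.49 to 0.26, adjusted p = 0.818, edgeR), so that changes larger than 0.49 lower or 0.26 higher lay outside the interval.

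The receptors Lgr4 and Lgr5 had estimates of opposite sign, and neither was called. Lgr4 (chr2:109757804-109854414) was stable in CTRL at 78.5, 82.1, 78 and 79.6 CPM and stood at 92, 106.4, 194.4 and 102.8 CPM in Isl1_hypo. The groups did not overlap (4.06% of all genes were higher in this way), although the library that stands apart, Isl1_hypo replicate 3, was far above the other 3 of its group. Its log2 fold change of 0.64 (95% interval 0.19 to 1.09) had an adjusted p of 0.272 in edgeR and an exact permutation p of 0.0286. Without Isl1_hypo replicate 3 the mean of that group was 100.4 ± 7.51 CPM (SD, n = 3) against 79.6 ± 1.82 in CTRL, and the log2 fold change was 0.34 (adjusted p = 0.152), under the limit of the study criterion. Lgr4 met this criterion in 13 of 19 alternatives. Among the others, besides that one, were limma-voom (0.39), the globin covariate (0.37), the Y-linked covariate (0.56) and Isl1_hypo replicates 2 and 4 only (0.39).

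Lgr5 (chr10:114887367-115024836), a receptor that is itself a Wnt target, was detected with 46, 105, 67 and 121 counts in CTRL, or 1.47, 2.58, 1.66 and 2.59 CPM. In Isl1_hypo it had 1, 0, 43 and 19 counts, or 0.0543, 0, 1.36 and 0.657 CPM. The 0 counts of Isl1_hypo replicate 2 allow up to 0.112 CPM (3 counts), and the single count of replicate 1 has an exact Poisson 95% interval of 0.0014 to 0.303 CPM. Every Isl1_hypo library lay under every CTRL library, but the Isl1_hypo libraries differed strongly among themselves. Their log2 fold change was −1.96 (95% interval −3.97 to 0.06, adjusted p = 0.436, edgeR), and −3.04 without Isl1_hypo replicate 3 (adjusted p = 0.247). It stayed below 0 in all 18 alternatives that tested the gene and was called in 0 of them, but it met the study criterion in 6 of the 18, DESeq2 among them. The estimate was −4.52 in limma-voom (adjusted p = 0.0535), and DESeq2 gave an unadjusted p of 0.0291. The Poisson interval and the limits from 0 counts cover counting error only, whereas the intervals of log2 fold changes include the spread between embryos.

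**Figure D3:**
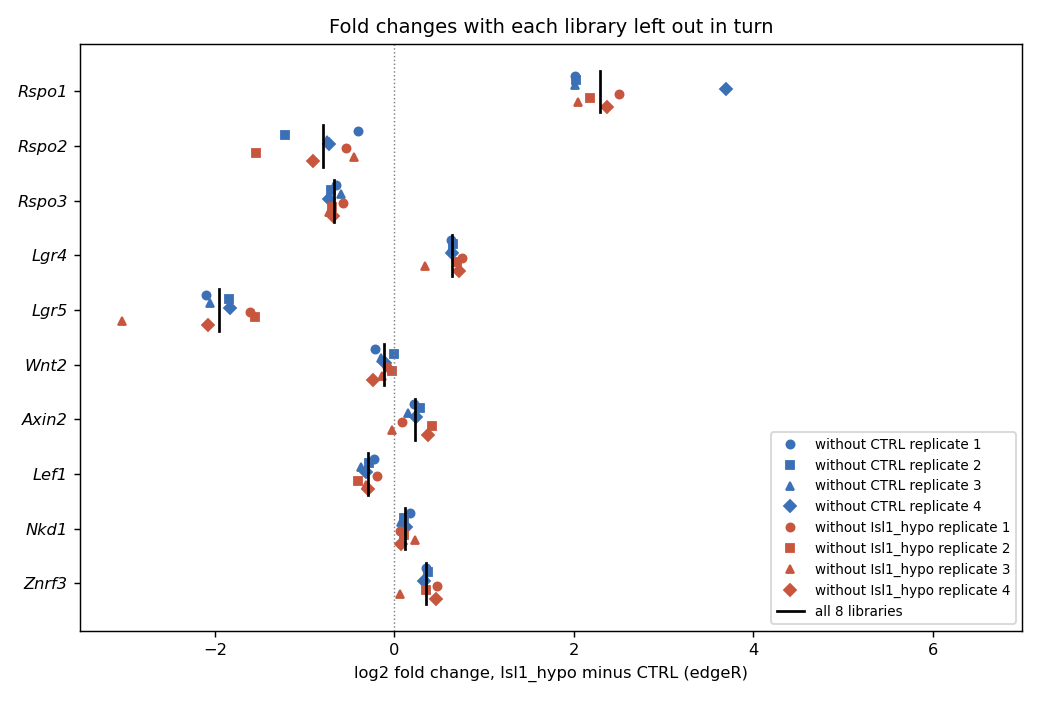
Log2 fold change of each gene (Isl1_hypo minus CTRL, edgeR) with all 8 libraries (black line) and with each library left out in turn, coloured by the group of the library left out. Rspo3 stays between −0.73 and −0.57, whereas Rspo1 moves to 3.70 without CTRL replicate 4, Lgr4 to 0.34 and Znrf3 to 0.06 without Isl1_hypo replicate 3.

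The readouts were compared next. Axin2 (chr11:108781663-108812097), which encodes a scaffold of the beta-catenin destruction complex, had 30, 44, 33 and 46 counts in CTRL and 27, 17, 52 and 22 in Isl1_hypo, or 0.96, 1.08, 0.819 and 0.983 CPM against 1.47, 0.637, 1.64 and 0.761 CPM. In Isl1_hypo, 2 libraries lay above and 2 below all CTRL libraries. Its log2 fold change was 0.23 with an interval of −0.88 to 1.33 (adjusted p = 0.89), and its sign changed in 4 of 19 alternatives, so no direction can be given.

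Lef1 (chr3:130813389-130927274), a DNA-binding partner of beta-catenin and a Wnt target, stood at 71.9, 64.1, 53.4 and 59.7 CPM in CTRL and 39.2, 60.9, 52.3 and 50.1 CPM in Isl1_hypo. Isl1_hypo replicates 1, 3 and 4 lay under all CTRL libraries and replicate 2 within them. The log2 fold change of −0.30 (95% interval −0.62 to 0.03) had an adjusted p of 0.467 and an exact permutation p of 0.0857. All 3 Lef1 transcripts in the table had lower mean CPM in Isl1_hypo, but the same reads can count for several of them.

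Nkd1 (chr8:91045243-91118786), which encodes an inhibitor of Dishevelled, stood at 36.6, 31.6, 29.8 and 32.8 CPM in CTRL and 39.9, 36.5, 27.3 and 38.7 CPM in Isl1_hypo, with a log2 fold change of 0.12 (95% interval −0.20 to 0.44, adjusted p = 0.77). Znrf3 (chr11:5176327-5344850), the ligase that R-spondins counteract, was stable in CTRL at 49.3, 50.1, 47.3 and 46.4 CPM and stood at 44.2, 60.1, 95.5 and 46.3 CPM in Isl1_hypo. As for Lgr4, Isl1_hypo replicate 3 was far above the rest. Here the log2 fold change was 0.35 (95% interval −0.12 to 0.82, adjusted p = 0.538) and 0.06 without that library (adjusted p = 0.933). The interval of Nkd1 thus left out changes above 0.44 in either direction on the log2 scale, whereas that of Znrf3 reached 0.82.

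**Figure D4:**
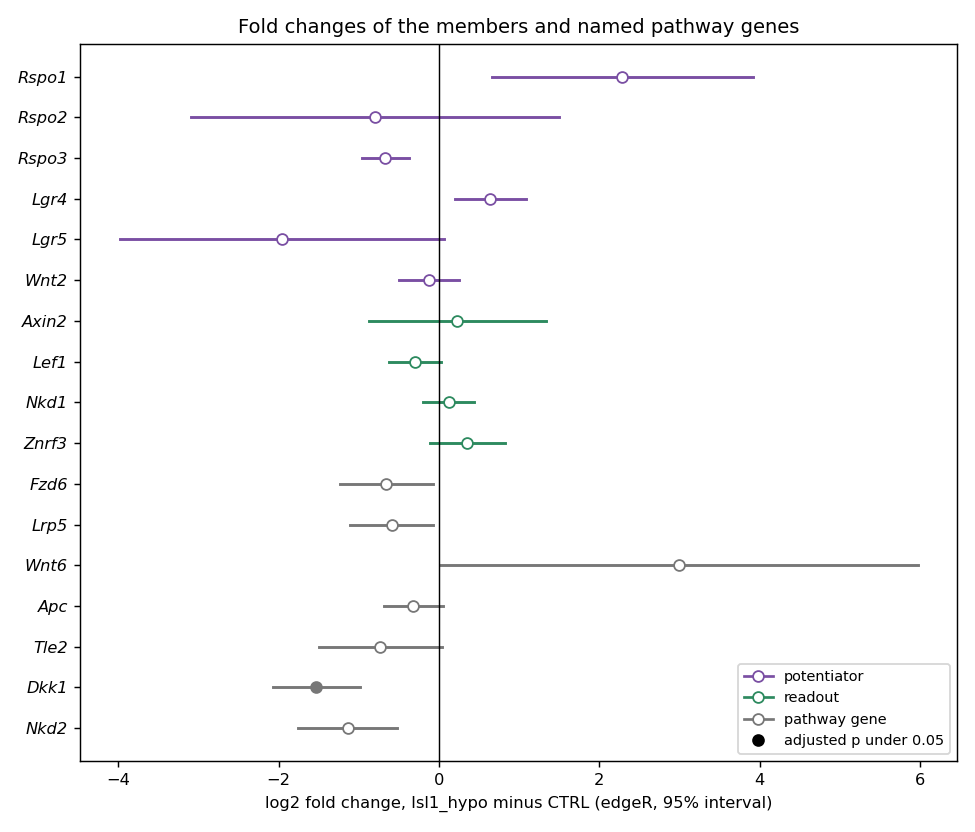
Log2 fold changes (Isl1_hypo minus CTRL, edgeR) with 95% intervals for the 10 genes, coloured as potentiators or readouts, and for pathway genes named by rule in grey. Only Dkk1, with a filled symbol, had an adjusted p under 0.05, and intervals are widest for Wnt6, Rspo2 and Lgr5.

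Other genes of the pathway were taken from 5 fixed lists. Of the receptor complex, 13 of 15 genes were tested, and 0 were called in edgeR, DESeq2 or limma-voom. The median log2 fold change was −0.16, and −0.30 to −0.17 with 1 library left out. At an unadjusted p under 0.05, 2 of the 13 were lower (6.17% of all genes). These were the Frizzled receptor gene Fzd6 (12.4 ± 3.93 to 7.86 ± 1.89 CPM, log2 fold change −0.66, adjusted p = 0.351) and the Wnt co-receptor gene Lrp5 (6.04 ± 1.16 to 4.02 ± 0.482 CPM, −0.59, adjusted p = 0.351). The other ligase gene of this system, Rnf43, did not pass the filter and had at most 55 counts in a library.

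Of 16 genes for canonical Wnt ligands and their secretion 7 were tested and 0 called in any of these 3 tools. At an unadjusted p under 0.05, 2 of the 7, Wnt6 and Wnt9a, were higher (5.69% of all genes). The median log2 fold change was 0.08. It ran from −0.13 without Isl1_hypo replicate 1 to 0.40 without CTRL replicate 1. Wnt9a, named after its values were seen, stood at 4.58 ± 0.618 CPM in CTRL and 6.81 ± 1.83 CPM in Isl1_hypo (log2 fold change 0.57, adjusted p = 0.395). Wnt6 had a log2 fold change of 2.998 (adjusted p = 0.415), which came from 134 counts in Isl1_hypo replicate 1, against at most 25 in any other library. This is the library with the highest epithelial sum, and the part of epithelium in this value was not tested. None of the 14 genes of the destruction complex and beta-catenin was called in edgeR, DESeq2 or limma-voom, and 0 reached an unadjusted p under 0.05 in edgeR. Their median was 0.05, and Apc, the scaffold of the complex, had the lowest p (log2 fold change −0.32, adjusted p = 0.483). The 12 genes of the TCF/LEF transcription complex likewise held 0 called genes in these 3 tools and 0 under an unadjusted p of 0.05 in edgeR, with a median of −0.07 (0.05 in limma-voom). The co-repressor gene Tle2 had the lowest p (−0.73, adjusted p = 0.442).

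Among 14 other canonical target genes 11 were tested and the median log2 fold change was 0.04. In edgeR 1 of the 11 was called (0.269% of all genes), as was 1 in limma-voom and 2 in DESeq2. At an unadjusted p under 0.05, 3 were lower (6.17% of all genes), Dkk1, Nkd2 and Sox9, and 1 was higher (5.69%), Myc. The last pair was named after its values were seen. The growth regulator gene Myc stood at 31.9 ± 3.12 CPM in CTRL and 40.6 ± 3.88 CPM in Isl1_hypo without overlap (log2 fold change 0.35, adjusted p = 0.312). Sox9, a transcription factor gene of cushion mesenchyme and cartilage, stood at 244.5 ± 60.4 and 187.8 ± 14.6 CPM (−0.38, adjusted p = 0.368). The gene called in edgeR was Dkk1, which encodes a secreted Wnt antagonist. It fell from 28.7 ± 4.21 to 9.98 ± 3.86 CPM (SD, n = 4; log2 fold change −1.53, adjusted p = 0.0342), and it lost this call in 9 of 19 alternatives, among them those without CTRL replicate 1, 2, 3 or 4 and without Isl1_hypo replicate 2 or 4, and those with the globin or Y-linked covariate. Its log2 fold change was −1.79 to −1.37 with 1 library left out, −1.27 with the globin covariate and −1.71 with the Y-linked covariate. Nkd2, a relative of Nkd1, stood at 12.2, 8.96, 14.2 and 13.6 CPM in CTRL and at 5.87, 6.86, 6.7 and 2.8 CPM in Isl1_hypo, and the groups did not overlap. Its log2 fold change was −1.14 (95% interval −1.75 to −0.52) with an adjusted p of 0.153 in edgeR and 0.0121 in DESeq2. The interval of its paralogue Nkd1 was −0.20 to 0.44, and the difference between both genes was not tested.

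The genes with a profile most like that of Rspo3 over the 8 libraries were Pcdh1, Plec and Dsp, with a mean absolute difference of 0.108, 0.109 and 0.116 between centred log2 CPM values. The median over 10743 genes of at least 5 CPM was 0.379. For Axin2 the nearest were Tmem35b, Smyd3 and Raet1b (0.152 to 0.16, median over all compared 0.381), but Axin2 itself had only 17 to 52 counts in a library. Those nearest to Wnt2 were Metrn, B3gat2 and Gm11715 (0.0526 to 0.0728), where the median was 0.274. These are descriptions of 8 libraries that differ in depth and blood content.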

How the data were processed

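The 10 genes and the gene lists were chosen with earlier results of these data known. Per the labels and the study's methods, the authors aligned reads with STAR to mm9 and counted exon reads per RefSeq transcript with HOMER, and strand was ignored, so reads of overlapping genes are added together. The deposited counts were not normalized. The authors computed the deposited RPKM with edgeR, used here only to compare levels between genes. The other deposited columns (mean normalized signal, transcript length as a plain number, log2 fold change, Wald score and p-value) hold the authors' DESeq2 comparison and, except length, were not used.

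For each of 20701 symbols 1 of 31507 transcripts was kept, that with the highest mean count. After filterByExpr, 13769 genes were compared by the quasi-likelihood test of edgeR 4.0.16 (TMM, no covariates, Benjamini-Hochberg adjustment over all genes). Log2 CPM had a prior count of 2. Single values were compared by exact 2-sided permutation tests over 70 assignments. Of each pathway list, called genes were named, and up to 3 with the lowest p past the study criterion, or else the 1 with the lowest p. DESeq2 1.42.0, limma-voom (limma 3.58.1) and other filters, scalings, covariates and libraries left out were the alternatives. Gene positions are from the GENCODE annotation of mm9. Replicate numbers were not treated as pairs in the main fit.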

Additional observations from a re-analysis of the deposited data

Results flagged for a closer look

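In 22 groups of 4 values, 2 held a library far from the rest, where chance gives about 1 in 20 groups (1.1). CTRL replicate 4 had an Rspo1 level of 0.697 log2 CPM, against −1.99 to −1.83 in the other CTRL libraries. CTRL replicate 2 had 0 counts of Rspo2, a value of −4.05 log2 CPM with the prior count, against −0.07 to 0.55 in the other CTRL libraries. The part of cell composition in both values was not tested.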

How the results depend on the processing

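Axin2, Rspo1, Rspo2 and Lgr5 had at most 125 counts in a library, and the estimates for Lgr4 and Znrf3 depend on Isl1_hypo replicate 3. Unless the construction of an alternative shows it, the cause of a change was not tested.

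The 37 genes called in edgeR became 100 at an adjusted p under 0.10, 134 with limma-voom (sample weights), 319 with DESeq2, 3 with the Y-linked covariate and 0 with the globin covariate (499 at unadjusted p under 0.05). Leaving out 1 library gave 4 to 48 genes. The 711 genes past the study criterion became 374 with the globin covariate and 599 to 907 with 1 library left out. Of the 10 genes described here, 0 were called, and 1 (Rspo3) had an adjusted p under 0.10 in edgeR, and 1 (Rspo3) was called at 0.05 with DESeq2 and with limma-voom. Leaving out 1 library gave 0 to 1, which was Rspo1 without CTRL replicate 4 and Rspo3 without Isl1_hypo replicate 3. The 3 genes past the study criterion became 4 with DESeq2 and with no filter, through Lgr5, 1 with the globin covariate, Rspo3, and 2 to 3 with 1 library left out.

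Isl1 had a log2 fold change of −2.30 with the globin covariate (adjusted p = 0.519) and of −2.46 to −2.14 with 1 library left out. The median of the potentiators was −0.46 to −0.30 and that of the readouts 0.02 to 0.23 with 1 library left out. With at least 10 counts required in every library, that of the potentiators was −0.12. Keeping only Isl1_hypo replicates 2 and 4, an alternative chosen after seeing the data, gave −0.013 for the readouts and −0.063 for the potentiators. Axin2 turned to −0.46 in that fit, −0.079 with limma-voom, −0.023 without Isl1_hypo replicate 3 and −0.0013 with the Y-linked covariate (−0.023 to 0.42 with 1 library left out), and Rspo2 turned to 0.96 with limma-voom.

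With the replicate number as a block (replicate block), 0 genes were called (1582 at an unadjusted p under 0.05), the log2 fold change of Isl1 was −2.29 with an adjusted p of 0.0722 and that of Rspo3 was −0.67 (adjusted p = 0.132). Under the same block Dkk1 had −1.58 (adjusted p = 0.102) and Lgr4 0.57, below the limit of the study criterion. Deviations of libraries with the same number correlated at −0.021 to 0.022, and only 1 of 4 CTRL libraries correlated best with its own number. With 4 libraries in a group, these values show no pairing but cannot exclude a shared litter or batch.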
